A study of Mus musculus with 8 samples.

Results

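A group of 26 genes peaked in untransfected mouse embryonic stem cells labelled as a knockout (lncSmad7-/-) of the long noncoding RNA lncSmad7, and stood lower both in wild-type cells and in knockout cells whose labels say Smad7 transfected. The genes were chosen by their level: a mean of at least 10 CPM (reads of a gene scaled to the total of its library) in the knockout, at least 1.8 times the wild-type mean and at least 1.8 times the mean of the labelled Smad7-transfected libraries. Clone-like symbols (Gm with a number, or ending in Rik) were left out, which removed 2 genes that met the levels. Of 55292 features in the deposited count table, 8923 named genes reached 10 CPM in the knockout, and 0.291% of these met both ratios. Since both ratios chose the genes, the knockout values below are a description, with no test.

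The cells are E14, a line of embryonic stem cells of strain 129/Ola, grown on gelatin with serum and the cytokine LIF, which keeps them undifferentiated. Wild-type cells and lncSmad7-/- cells were untreated, and a further pair of lncSmad7-/- samples carries the label Smad7 transfected, with 24 h in its descriptions. Smad7 holds back signals of the TGF-beta family, and the series title links lncSmad7 to the recruitment of the acetyltransferase p300 to enhancers. Each of these groups had 2 libraries, described by the series as biological replicates, and no source used here says whether the knockout is 1 clone. The series also has a group of knockout cells transfected with lncSmad7, which was not analysed here. P-values therefore measure the spread between 2 libraries of each group, which may be technical, and no mock-transfected knockout entered the comparison, so transfection as such and Smad7 cannot be told apart. These are bulk libraries, in which fewer cells that express a gene and less RNA per cell cannot be told apart. The knockout cells also differed from wild type in the levels of X-linked and Y-linked genes, as given below. Loss of lncSmad7 and that difference cannot be told apart in any comparison with wild type.

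Total counts lay between 13392941 and 20209760, lowest in both labelled Smad7-transfected libraries. Those 2 libraries also stood apart in their mitochondrial share (2.33% and 2.48% of counts, against 1.37% to 1.58% in the other libraries) and in their share of ribosomal protein genes (3.34% and 3.39%, against 4.49% to 5.20%). The lncSmad7 feature had 237 and 221 counts in wild type, 140 and 105 in knockout cells, and 167 and 207 in the labelled libraries. By CPM its knockout mean was 0.531 times that of wild type, so the counts show a reduction and not an absence of reads, and the labels do not say which part of the gene is deleted. Smad7 stood at 85.9 and 86.4, 73.5 and 68.0, and 109 and 115 CPM. Both were thus higher by column total in the labelled libraries than in the untransfected knockout, and the cause of this rise was not tested. Against wild type, edgeR's quasi-likelihood test after TMM scaling called no difference for Smad7 in the labelled libraries (log2 fold −0.01, adjusted p = 0.79). By the same test lncSmad7 was lower there (log2 fold −0.26, adjusted p = 0.027). All 8 embryonic stem cell markers (Pou5f1, Sox2, Nanog and others) were detected, with summed levels of 4270 to 4360 CPM in wild type, 6400 to 6530 in the knockout and 5060 to 5070 in the labelled libraries. Of these 8 markers, 2 were higher and 6 lower in the labelled libraries than in wild type by edgeR after TMM scaling (median log2 fold −0.30). Of 14 genes of fibroblasts and feeder cells, 8 stayed under 1 CPM in every library, and Col3a1, Postn, Lum and Dcn had no count in the knockout. The summed level of that list, most of it Fn1 and Vim, which other cells also express, was 1100 to 1110, 1430 to 1480 and 2140 to 2250 CPM in the same order. All 6 genes of the list that were tested were higher in the labelled libraries than in wild type (median log2 fold 0.85). Of 24 endoderm genes 6 stayed under 1 CPM in every library, Cer1 had no count in the knockout, and their summed level was 1510, 2060 to 2080 and 2630 to 2700 CPM. Apoe and Lamc1 made up most of that sum (means of 301, 1049 and 1484 CPM, and of 521, 701 and 626), while of 20 endoderm genes tested 3 were higher and 15 lower in the labelled libraries than in wild type (median log2 fold −0.96). The part of these differences in the results below was not tested.

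As background, a few of the genes have textbook roles in growth factor signalling, pluripotency, the response to nutrients or the circadian clock. Growth factors acting through the kinase ERK switch on immediate early transcription factors such as Egr1 within a short time, and feedback phosphatases such as Dusp4 then remove phosphate from the kinases. Embryonic stem cells that receive LIF maintain a network of transcription factors, in which the orphan receptor Nr0b1 and several Krüppel-like factors take part. Tfeb drives lysosomal genes when nutrients are short, and Nr1d1 is a repressor of the circadian clock.

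In every one of the 26 genes the lowest knockout library lay above the highest library of both other groups, as the plot of levels by library shows. The rule set the means at least 1.8-fold apart, so with close replicates this largely follows from the choice of genes and is no separate result. The ratio of knockout to wild type ran from 1.87 to 8.82 (median 2.91) and that of the knockout to the labelled libraries from 1.81 to 4.52 (median 2.02). For 22 of the genes the second ratio was the smaller one, and in 12 it was under 2. Among all named genes of at least 10 CPM in the knockout, 14.4% met the ratio to wild type and 3.96% the ratio to the labelled libraries. Replicates lay close: the SD was at most 22.3% of the mean in the knockout (median 3.26%), 20.1% in wild type and 17.9% in the labelled libraries. The summed share of all counts held by the 26 genes was 0.337% and 0.341% in the knockout, against 0.124% and 0.126% (wild type) and 0.176% and 0.173% (labelled libraries).

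**Figure D1:**
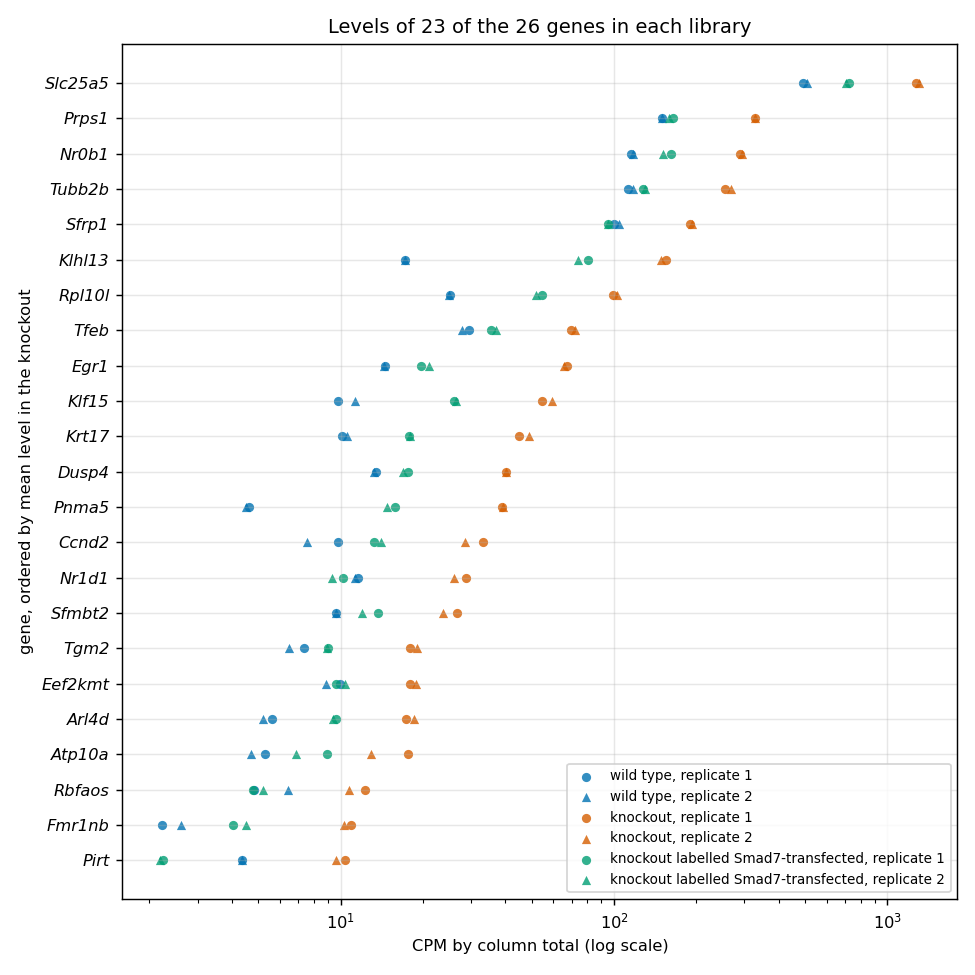
Level of 23 of the 26 genes (rows) in CPM by column total on a log axis, with 1 point per library: wild type in blue, knockout in orange and the labelled Smad7-transfected knockout in green, circles for replicate 1 and triangles for replicate 2. Both orange points lie to the right of the other 4 in each row, from Slc25a5 at the top (1270 and 1310 CPM in the knockout) to Pirt at the bottom (10.4 and 9.66).

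Members close to the thresholds were Slc25a5 (smaller ratio 1.81), Eef2kmt (1.84) and Nr0b1 (1.86). Just outside lay the naive pluripotency factor Klf2, with means of 160, 612 and 342 CPM in wild type, knockout and labelled libraries and a smaller ratio of 1.79, then Mfng (1.78) and Metrn (1.77). At the level threshold Pirt (10.02 CPM in the knockout) and Fmr1nb (10.6) were inside, and Kcnj12 (9.88) and Aldh1b1 (9.85) outside.

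**Figure D2:**
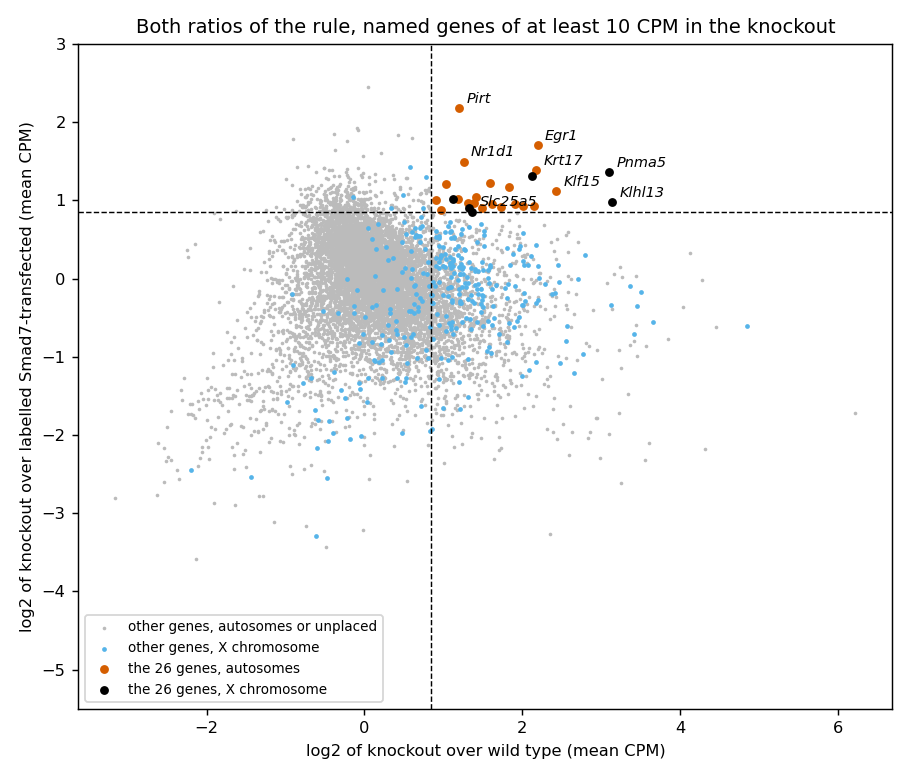
Each point is 1 of 8923 named genes of at least 10 CPM in the knockout, with the log2 ratio of knockout to wild type on the x axis and of knockout to the labelled Smad7-transfected libraries on the y axis. A gene without counts in wild type or in the labelled libraries has no ratio and is not drawn, nor is a point outside the range of the y axis. Dashed lines mark the ratio of 1.8, and the 26 genes fill the upper right corner (orange for autosomes, black for the X chromosome), where Pirt lies highest (4.52) and Klhl13 and Pnma5 lie farthest right (8.82 and 8.59).

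Of the 5 transcription factors and nuclear receptors listed first, Egr1 had the greatest ratio of the knockout to the labelled libraries (3.26) and Klf15 the greatest to wild type (5.38). Egr1, a zinc finger factor of the immediate early response, stood at 14.6 and 14.4 CPM in wild type, 67.2 and 65.4 in knockout cells, and 19.7 and 21 in the labelled libraries. Klf15, a Krüppel-like factor known for control of metabolism, was at 9.81 and 11.3, 54.4 and 59.2, and 26 and 26.5 CPM. Tfeb was at 29.4 and 27.8, 69.9 and 71.9, and 35.5 and 37.1 CPM. By column total the labelled libraries of Egr1, Tfeb and Klf15 lay above wild type. After TMM scaling this difference was called for Klf15 but not for Egr1 or Tfeb, as given below. Nr0b1, an orphan receptor without the usual DNA-binding domain, was at 115 and 117, 290 and 293, and 162 and 151 CPM. Nr1d1 was at 11.6 and 11.3, 28.7 and 26.1, and 10.2 and 9.27 CPM, and is 1 of the 4 genes whose ratio to the labelled libraries (2.82) exceeded that to wild type (2.39).

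Signalling and cell cycle genes made a second set. Dusp4, a nuclear phosphatase of MAP kinases, stood at 13.5 and 13.3 CPM in wild type, 40.4 and 40.2 in knockout cells, and 17.6 and 16.9 in the labelled libraries. Ccnd2, a D-type cyclin, was at 9.76 and 7.57, 33.3 and 28.6, and 13.3 and 14.1 CPM. By column total the labelled libraries of both lay above wild type and below the knockout without overlap. Sfrp1, a secreted antagonist of Wnt ligands, was at 100 and 104, 190 and 193, and 94.9 and 95.2 CPM, with the smallest ratio to wild type of the group (1.87) and labelled libraries below both wild-type ones. Arl4d, a small GTPase of the Arf-like family, was at 5.61 and 5.20, 17.3 and 18.5, and 9.63 and 9.39 CPM.

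Structural and membrane genes included Krt17, a type I keratin, at 10.1 and 10.6 CPM in wild type, 45.1 and 48.7 in knockout cells, and 17.8 and 18 in the labelled libraries. Tubb2b, a beta tubulin of neurons and their precursors, was at 113 and 117, 255 and 267, and 128 and 130 CPM. By column total Krt17 kept a gap between wild type and the labelled libraries, and Tubb2b nearly closed it. After TMM scaling Tubb2b was lower in the labelled libraries than in wild type, as given below. Tgm2, a protein-crosslinking transglutaminase, had means of 6.93, 18.5 and 8.99 CPM in wild type, knockout and labelled libraries. The lipid flippase gene Atp10a had the widest spread in the knockout, at 5.30 and 4.70, 17.7 and 12.9, and 8.89 and 6.89 CPM. Pirt, a regulator of TRP ion channels in sensory neurons, was at 4.36 and 4.35, 10.4 and 9.66, and 2.24 and 2.19 CPM (30 and 35 reads in the labelled libraries), and had the greatest ratio of the knockout to the labelled libraries (4.52).

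Metabolic and other genes completed the group. Slc25a5, a carrier that exchanges ADP and ATP across the inner mitochondrial membrane, was the most abundant, at 491 and 507 CPM in wild type, 1270 and 1310 in knockout cells, and 721 and 705 in the labelled libraries. Per kilobase of exon it also led the group, with 783 CPM per kilobase in the knockout against 164 for Prps1, 161 for Nr0b1, 114 for Tubb2b and 2.38 for Pirt. Prps1, a synthetase of the nucleotide precursor PRPP, stood at 150 and 150, 327 and 328, and 164 and 159 CPM. Klhl13, a substrate adaptor of a Cul3 ubiquitin ligase, was at 17.2 and 17.2, 155 and 148, and 80.6 and 73.8 CPM, and Pnma5, of the paraneoplastic Ma antigen family, at 4.62 and 4.50, 39.1 and 39.3, and 15.8 and 14.8. These 2 genes had the greatest ratios to wild type, 8.82 and 8.59, and their labelled libraries stayed several times above wild type. Rpl10l, an intronless copy of the ribosomal protein gene Rpl10, had means of 25.1, 101 and 53.3 CPM. Sfmbt2, a Polycomb-associated MBT protein, was at 9.60, 25.1 and 12.9 CPM, Eef2kmt, a methyltransferase of the elongation factor eEF2, at 9.39, 18.4 and 10.01, the noncoding Rbfaos at 5.63, 11.5 and 4.99, and Fmr1nb at 2.43, 10.6 and 4.27.

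Setting the labelled Smad7-transfected knockout against wild type asks whether the 26 genes stood there at, above or below the wild-type level. The rule sets no condition on it, although it uses the same libraries. By edgeR's quasi-likelihood test over 17342 genes, with Benjamini-Hochberg adjustment and a threshold of 0.05, 12 of the 26 genes were higher in the labelled libraries than in wild type, 7 were lower and 7 did not pass. That is 46.2% and 26.9% of the group, and of all genes tested 81.9% were called, 43.1% higher and 38.8% lower, so the counts lie near the background. At a fold of at least 1.5 the group had 5 higher and 2 lower, 19.2% and 7.69%, against 34.8% and 27.0% of all genes tested. The libraries of the 2 conditions did not overlap in 24 of the 26 genes, and in 90.6% of all genes tested. The median log2 fold was 0.11 in the group and 0.09 over all genes tested. All 26 genes had at least 10 counts in each of these 4 libraries, so none entered the test through the knockout alone.

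Direction here depended on how libraries were scaled. The test used trimmed mean (TMM) factors, and scaling by library size alone moved the median log2 fold of all genes from 0.09 to 0.48 and the share of higher calls among all calls from 52.6% to 68.3%. With that scaling 21 of the 26 genes were higher and 3 lower. Therefore 10 genes are set first that kept direction and call under all alternatives tried, apart from a minimum fold of 1.5. Some of the 10 fell short of that fold, such as Krt17 (log2 fold 0.40) and Sfrp1 (−0.50). The share of all genes tested that kept direction and call was not counted, so the 10 are not read as many or few.

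Of these 10, 7 were higher in the labelled libraries. Klhl13 had the greatest fold (log2 fold 1.77, SE 0.066, adjusted p = 1.5e-57), followed by Pnma5 (1.35, SE 0.13, adjusted p = 1.1e-19) and Klf15 (0.92, SE 0.093, adjusted p = 1.2e-17). Rpl10l (0.69) and Krt17 (0.40) were also higher, with SEs of 0.065 and 0.10. For the genes named the labelled libraries stopped between wild type and the knockout. The other three were lower than wild type: Pirt by a log2 fold of −1.36 (SE 0.20, adjusted p = 8.9e-10), Nr1d1 by −0.63 (SE 0.11, adjusted p = 2.7e-07) and Sfrp1 by −0.50 (SE 0.045, adjusted p = 2.3e-20). Adjusted p-values are from edgeR's quasi-likelihood test.

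The other calls were less firm. Fmr1nb (0.43, SE 0.20), Arl4d (0.42, SE 0.14), Ccnd2 (0.28, SE 0.12) and Slc25a5 (0.12, SE 0.035) were higher, and none of these 4 passed by DESeq2. Without wild-type replicate 2 Ccnd2 (0.075) and Arl4d (0.34) did not pass, and without replicate 2 of the labelled group Ccnd2 (0.24) did not either. Slc25a5 did not pass without wild-type replicate 1 (0.085). With DESeq2-style size factors (RLE) in edgeR Slc25a5 (0.075), Ccnd2 (0.23) and Fmr1nb (0.38) did not pass, and with no filter on low counts Ccnd2 (0.25) and Fmr1nb (0.40) did not. With only the 4 libraries compared Fmr1nb (0.41) did not pass. Fmr1nb did not pass without either wild-type library (0.30 and 0.53), without knockout replicate 1 (0.41) or without replicate 2 of the labelled group (0.35). Prps1 (−0.29, SE 0.041) and Tubb2b (−0.22, SE 0.043) were lower, and both were higher with library size scaling (0.10 and 0.17). Eef2kmt (−0.29, SE 0.12) was lower, but not without wild-type replicate 1 (−0.22) or replicate 1 of the labelled group (−0.24), nor with at least 1 CPM in 4 libraries (−0.18), nor by DESeq2, and library size scaling turned it to 0.10. Rbfaos (−0.56, SE 0.16) was lower, but not without wild-type replicate 2 (−0.36) or with library size scaling (−0.17).

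The 7 genes that did not pass are given with intervals under TMM scaling. These intervals reflect the spread between libraries and not the choice of scaling. Tfeb stood at −0.04 (95% confidence interval −0.18 to 0.09), Nr0b1 at 0.04 (−0.04 to 0.12), Dusp4 at −0.03 (−0.21 to 0.17) and Egr1 at 0.10 (−0.08 to 0.28). Sfmbt2 was at 0.02 (−0.20 to 0.24), Tgm2 at −0.01 (−0.27 to 0.25) and Atp10a at 0.25 (−0.07 to 0.58). Each of them was higher with library size scaling, by log2 folds from 0.35 for Tfeb to 0.65 for Atp10a, which lay above the upper end of its interval in every case. Without replicate 2 of the labelled group Atp10a passed (0.45). When genes had to reach 1 CPM in 4 libraries, Nr0b1 (0.15), Egr1 (0.21) and Atp10a (0.36) passed as higher.

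**Figure D3:**
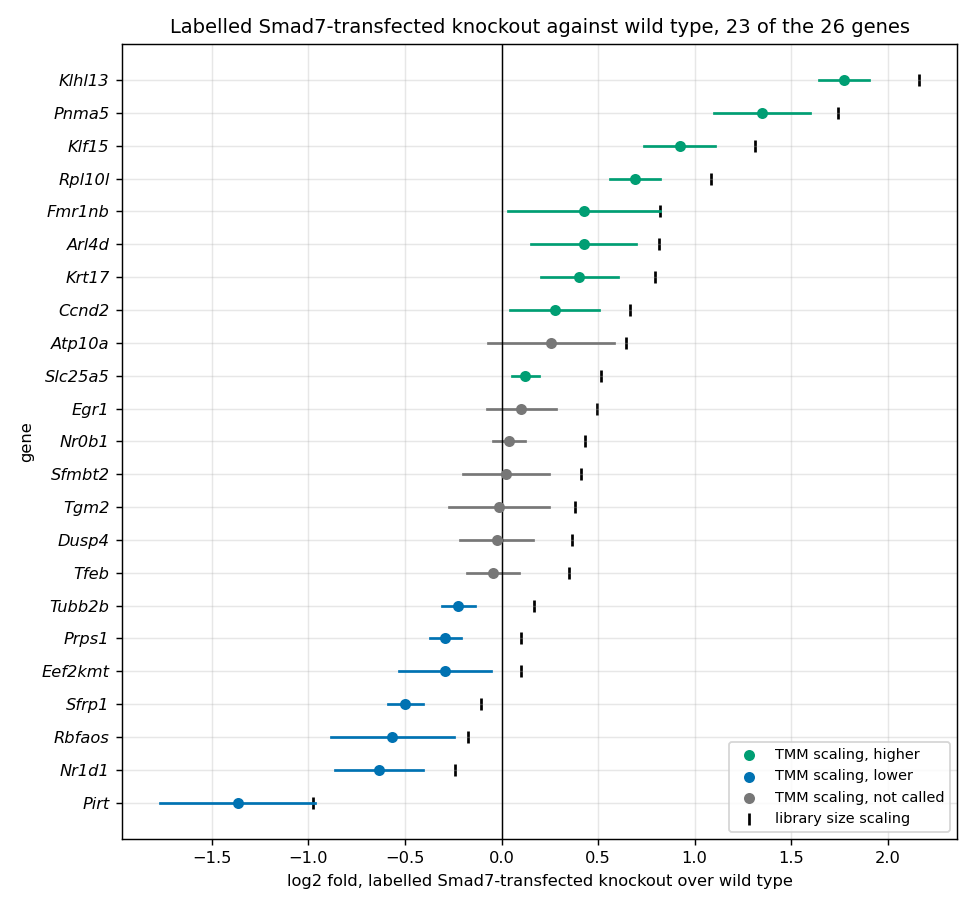
Log2 fold of the labelled Smad7-transfected knockout over wild type for 23 of the 26 genes (points, TMM scaling, bars for the 95% confidence interval, coloured by the call) with the value under library size scaling as a black tick. Klhl13 lies highest (1.77) and Pirt lowest (−1.36), and the black ticks sit to the right of every point.

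By position 6 of the genes lie on the X chromosome (Slc25a5, Prps1, Nr0b1, Klhl13, Pnma5 and Fmr1nb) and the other 20 on 12 autosomes. That is 23.1% of the group, while the X holds 3.58% of the named genes of at least 10 CPM in the knockout. The ratio to wild type was met by 63.0% of such X-linked genes and 12.6% of autosomal ones, and the ratio to the labelled libraries by 3.76% and 3.94%. The median log2 fold of X-linked genes was 0.87 for the knockout over wild type and 1.07 for the labelled libraries over wild type. Y-linked genes moved with this: Ddx3y had 710 and 748 counts in wild type, 23 and 9 in knockout cells, and 40 and 39 in the labelled libraries. From the knockout to the labelled libraries the X median was 0.10, and the rule chose the members for being lower there. Loss of lncSmad7 and this difference in sex-linked genes between the cells cannot be told apart in the ratio to wild type. That holds for the 20 autosomal members as well as for the 6 X-linked ones. Against the X median of 1.07, Klhl13 (1.77) and Pnma5 (1.35) stood above in the labelled libraries and Fmr1nb (0.43), Slc25a5 (0.12), Nr0b1 (0.04) and Prps1 (−0.29) below.

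The genes next to the members are given as a description. Of 50 distinct nearest tested neighbours, 23 reached 10 CPM in the knockout, 4 of these met the ratio to wild type (Gk, Wdr44, Zfp185 and Ids, all beside X-linked members), 2 met the ratio to the labelled libraries and 0 met both. Over all named genes at that level the shares were 14.4%, 3.96% and 0.291%, so with 23 neighbours a count of 0 is no result. The 2 that met the ratio to the labelled libraries were Psmg4 beside Tubb2b and the keratin gene Krt42, 1853 bp from Krt17, with means of 13.1, 19.2 and 9.06 CPM in wild type, knockout and labelled libraries.

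The positions follow GRCm38, which is also the build in the submitters' processing notes. Dusp4 lies at chromosome 8, 34807297 to 34819894, Klhl13 at chromosome X, 23219271 to 23365082, Pnma5 at chromosome X, 73033981 to 73037103, and Pirt at chromosome 11, 66911981 to 66929876. Some values are uncertain because transcripts overlap and the sources do not state the strand setting of the counting. Nr1d1 shares exonic bases with Thra on the opposite strand (means of 9.78, 15.5 and 27.6 CPM), Eef2kmt with Alg1 (15.2, 19.6 and 25.0) and Tgm2 with Rprd1b (73.3, 67.2 and 60.7), and none of these partners peaked in the knockout. Rbfaos, placed from RefSeq, overlaps Rbfa. Slc25a5, Rpl10l and Tubb2b have near-identical copies or pseudogenes, and the handling of shared reads is not stated. The parent copy Rpl10 stood at means of 704, 1357 and 931 CPM, 1.93 and 1.46 times below the knockout, and Tubb2a at 9.02, 20.1 and 11.97.

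Promoters (250 bases before to 50 after the start) came from RefSeq (GRCm38.p6) for 14 of the 26 genes, some with several starts. Sequences are shown for 4 genes that span the behaviours above after TMM scaling: Klf15 and Pnma5, which stopped above wild type, and Prps1 and Nr1d1, which did not. By column total Prps1 stood slightly above wild type (164 and 159 against 150 and 150 CPM). Capitals mark CACGTG, the E-box core, in Klf15 (chr6:90462326-90462625, plus strand), TGATGNAAN, an ATF4 response motif, in Prps1 (chrX:140456353-140456652, plus strand), the octamer ATTTGCAT in Pnma5 (chrX:73037054-73037353, minus strand) and ACGTG, the hypoxia response core, in Nr1d1 (chr11:98775328-98775627, minus strand).
Klf15: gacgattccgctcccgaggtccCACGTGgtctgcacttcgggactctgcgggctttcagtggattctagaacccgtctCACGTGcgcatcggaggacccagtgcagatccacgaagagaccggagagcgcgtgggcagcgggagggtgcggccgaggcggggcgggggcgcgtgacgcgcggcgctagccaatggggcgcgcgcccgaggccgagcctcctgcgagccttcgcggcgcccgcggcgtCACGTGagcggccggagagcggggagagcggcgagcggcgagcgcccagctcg
Prps1: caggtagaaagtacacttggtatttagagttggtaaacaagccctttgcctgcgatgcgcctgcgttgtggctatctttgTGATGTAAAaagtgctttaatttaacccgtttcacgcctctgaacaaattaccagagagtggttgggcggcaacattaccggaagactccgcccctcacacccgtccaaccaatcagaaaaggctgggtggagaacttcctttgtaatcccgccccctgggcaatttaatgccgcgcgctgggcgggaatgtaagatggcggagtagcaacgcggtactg
Pnma5: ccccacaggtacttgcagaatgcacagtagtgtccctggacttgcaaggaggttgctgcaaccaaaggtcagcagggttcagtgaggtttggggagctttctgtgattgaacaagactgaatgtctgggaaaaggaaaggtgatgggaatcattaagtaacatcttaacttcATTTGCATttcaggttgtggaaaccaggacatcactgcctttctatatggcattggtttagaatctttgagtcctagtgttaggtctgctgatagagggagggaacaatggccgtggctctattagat
Nr1d1: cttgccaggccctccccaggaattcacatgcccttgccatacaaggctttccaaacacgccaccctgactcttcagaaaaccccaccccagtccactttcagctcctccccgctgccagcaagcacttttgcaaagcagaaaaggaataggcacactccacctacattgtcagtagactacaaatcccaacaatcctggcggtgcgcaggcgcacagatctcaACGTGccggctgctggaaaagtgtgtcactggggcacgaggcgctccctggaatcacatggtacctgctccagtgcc
Searched on both strands, the E-box core stood in 1 of the 14 genes, Klf15, where it occurred at 3 places, and in 8.09% of 27025 genes in the table. ACGTG, which the E-box core contains, stood in Klf15 and Nr1d1, 14.3% of the 14 against 21.8% of all. GGGCGG, the GC box, stood in 9 of 14 (64.3%, against 38.2%), CCACCC, a motif of Krüppel-like factors, in 5 (35.7%, against 34.0%), and the Smad palindrome GTCTNGNC in 2 (14.3%, against 12%). TGATGNAAN stood in Klhl13 and Prps1 (14.3%, against 4.5%), ATTTGCAT in Pnma5 (7.14%, against 1.97%) and the extended ERR site TCAAGGTCA in 0 (against 0.466%). The median GC content was 57.0% in the first listed promoter of the 14 genes and 52.7% over all promoters. The 27025 genes include those under the 10 CPM that the rule required, so these shares are not set against genes of like level. A match describes letters in these windows and not binding.

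Other genes of the same pathways were read from lists of textbook members, and 7 of the 26 genes belong to one of 32 such lists. The share of all named genes of at least 10 CPM that the lists hold was not counted, so the 7 are not read as many or few. The genes named from them were picked after their values were seen. In the list of ERK feedback and immediate early genes, Egr1 and Dusp4 were the only members, of 13 genes that reached 10 CPM in the knockout. Fos, partner of Jun in the factor AP-1, was highest in the labelled libraries, at 1.61 and 1.63 CPM in wild type, 8.33 and 9.92 in knockout cells, and 28.3 and 26.8 in the labelled libraries. Jun did likewise (4.10 and 3.91, 8.93 and 8.12, 43.8 and 42.1 CPM), and so did the phosphatase Dusp1 (means of 13.8, 56.1 and 112). Spry1, an inhibitor of the same pathway, came close to the pattern of Dusp4, with means of 12.4, 20.7 and 10.6 CPM. In the labelled libraries against wild type, 13 of 27 genes of the list were higher and 9 lower, with a median log2 fold of 0.10, against 0.09 over all genes tested.

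**Figure D4:**
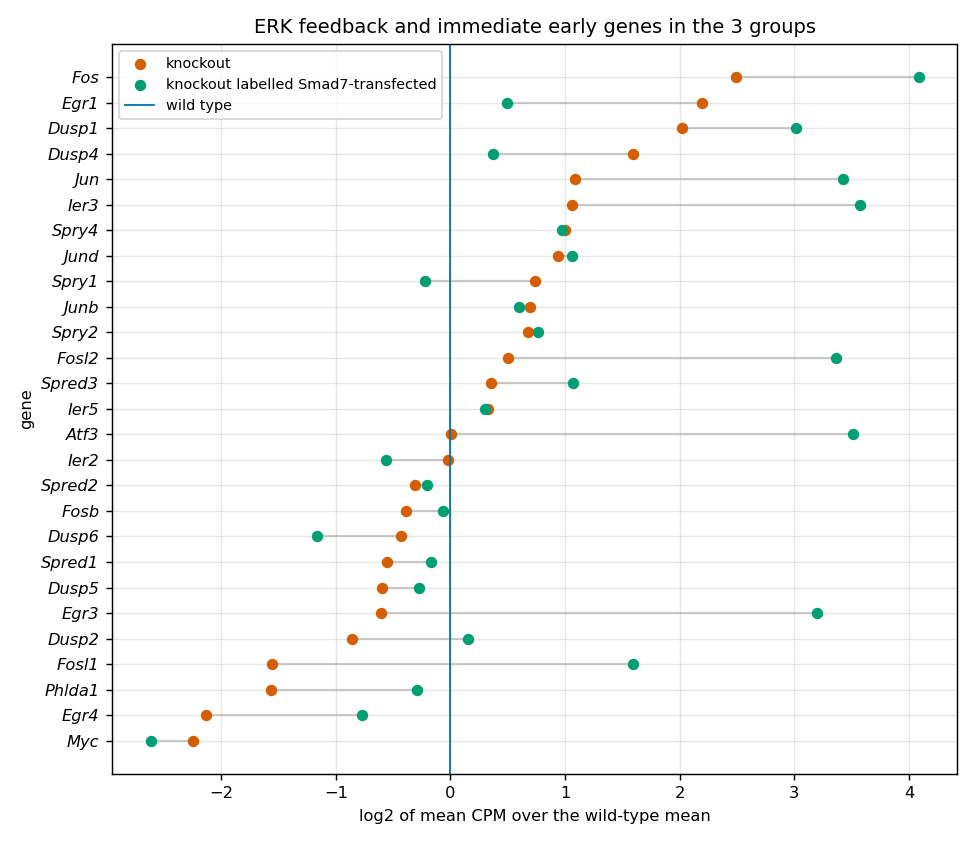
Log2 of the mean CPM over the wild-type mean for 27 ERK feedback and immediate early genes, in the knockout (orange) and the labelled Smad7-transfected knockout (green), with wild type as the line at 0. The orange point of Egr1 and Dusp4 lies well to the right of the green one, while for Fos, Jun, Ier3 and Dusp1 the green point lies farther right. Genes at the edges such as Egr3, Egr4, Fosl1 and Fosb rest on under 2 CPM in every group.

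Naive pluripotency genes had Nr0b1 as a member and Klf2 just outside. Of 20 genes tested, 7 were higher and 12 lower in the labelled libraries than in wild type (median −0.10). Klf4 (means of 97.6, 327 and 258 CPM), Tcl1 (41.5, 161 and 113) and Prdm14 (25.5, 70.0 and 45.6) were also highest in the knockout, with ratios of 1.27, 1.43 and 1.53 to the labelled libraries. Lncenc1 (78.7, 60.1 and 16.6) and Gbx2 (39.3, 29.2 and 12.96) stepped down instead. Among all Krüppel-like factors, a family list added once the members were known, 8 of 14 at 10 CPM met the ratio to wild type but only Klf15 met both.

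The 29 lysosomal genes, the best-known targets of Tfeb, contained no member. Of 28 that reached 10 CPM in the knockout, 20 met the ratio to wild type and 0 the ratio to the labelled libraries. Their summed level was 2130 and 2170 CPM in wild type, 4110 and 4170 in knockout cells, and 7170 and 7260 in the labelled libraries, where 28 of 29 were higher than in wild type and 0 lower (median log2 fold 1.53). This list was thus highest in the labelled libraries, whereas the rule itself chose Tfeb for being lower there than in the knockout. Against wild type Tfeb was not called in those libraries (log2 fold −0.04 after TMM scaling). A link between Tfeb and the list was not tested. Of the relatives of Tfeb, Tfe3 on the X chromosome had means of 80.9, 191 and 172 CPM by column total, and Mitf 24.5, 36.0 and 46.8.

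Relatives of other members came from families that were also added once the members were known, and some of those named were also highest in the knockout. Of the circadian clock genes, Nr1d2, the closest relative of Nr1d1, had means of 41.7, 36.5 and 49.0 CPM, Bhlhe40 14.9, 159 and 277, and Ciart 7.41, 21.4 and 21.7. Dbp, a clock output gene, was also highest in the knockout at a low level, with 2.65 and 1.98, 8.38 and 9.05, and 4.11 and 5.01 CPM. Among D-type cyclins Ccnd3 (200, 302 and 175 CPM) and Ccnd1 (216, 250 and 150) also had their highest mean in the knockout, at ratios of 1.51 and 1.16 to wild type. Slc25a4, the other abundant ADP/ATP carrier, was at 217 and 219, 349 and 370, and 176 and 184 CPM, with a ratio to wild type of 1.65, below the threshold. Prps2 was at 102, 157 and 212 CPM and thus highest in the labelled libraries. Sfrp2, a relative of Sfrp1, was at 6.48, 18.03 and 18.6 CPM.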

How the data were processed

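The authors deposited raw read counts per gene symbol from poly(A)-selected TruSeq libraries. Per the submitters' processing notes, STAR and featureCounts 1.6.3 and the builds mm10 and GRCm38 were used, with no role given; annotation, strand setting and treatment of shared reads: not given in the sources used here. Of 8 columns 6 match a sample's labels, and the other 2 were not used. The 26 genes and all lists were chosen with earlier results of these data known. Of 3 planned tests only the labelled Smad7-transfected knockout against wild type could be run. Genes were filtered with filterByExpr (17342 left), scaled by TMM and tested over all 6 libraries with edgeR 4.0.16 (quasi-likelihood, robust, R 4.3.3; 3 residual degrees of freedom), after a check on simulated data. Log2 folds and SEs come from that fit, and CPM values are by column total. Alternatives were DESeq2 1.42.0, RLE and library size scaling, no filter on low counts, at least 1 CPM in 4 libraries, only the 4 libraries compared, a replicate block and each library left out. Replicates differed by more than sampling noise (chi-square per degree of freedom 1.57 to 1.89). Positions and exon lengths came from GENCODE M21, with Rbfaos from RefSeq. Named genes were to be those highest in the knockout, with the largest ratios, the largest folds between the labelled libraries and wild type, list members and those nearest the thresholds, and since the group is small 23 of the 26 are named. The values of the other 3, which all counts, ranges and medians include, are not reported here. Relatives were also named after their values were seen.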

Additional observations from a re-analysis of the deposited data

How the results depend on the processing

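The number of genes that met the rule depended on its settings: 114 at a ratio of 1.5, 3 at 2.5 (Egr1, Krt17 and Pnma5), 54 with TMM-scaled CPM (24 of them shared with the 26) and 17 when the lowest knockout library had to exceed each other library 1.8-fold. With any 1 library left out it was 25 to 30, and 24 to 26 of the genes were shared. Members of a fixed list numbered 16 at a ratio of 1.5, against 7. In the labelled libraries against wild type, 12 genes were higher and 7 lower, against 21 and 3 with library size scaling, 7 higher by DESeq2, and 5 and 2 at a fold of at least 1.5. RLE scaling gave 9 and 7, no filter on low counts 10 and 7, at least 1 CPM in 4 libraries 15 and 6, and only the 4 libraries compared 11 and 7. Library size scaling turned Prps1 (0.10), Tubb2b (0.17), Tfeb (0.35), Dusp4 (0.37), Tgm2 (0.38), Eef2kmt (0.10), Smad7 (0.38, against −0.01) and lncSmad7 (0.13, against −0.26) upward. That follows from the scaling, which moved the median of all genes by the same amount. All-gene counts kept within 1.5 times under every setting tried. The replicate block, by the numbers in the titles, changed no call among the 26 genes (12 higher and 7 lower), and the numbers were not shown to pair the samples (correlation of replicate differences 0.176 between wild type and knockout, 0.077 between knockout and labelled libraries and 0.058 between wild type and labelled libraries). Tests of the group transfected with lncSmad7 were not run. A total of 13392941 to 20209760 counts, and 30 to 35 reads for Pirt in the labelled libraries, limit the precision of the least abundant genes.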

Other observations

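With TMM-scaled CPM in place of column totals the rule would also take 30 genes beside 24 of the 26, and lose Sfrp1 and Eef2kmt. Among those gained were Klf2, the pluripotency factor Prdm14 and the ribosomal protein genes Rpl36a and Rpl39, and 13 of the 54 (24.1%) were X-linked. The 2 genes left out for their symbols were D630039A03Rik, with means of 0.885, 12.4 and 4.07 CPM in wild type, knockout and labelled libraries, and Gm9616, with 8.81, 18.5 and 9.60.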
